A study of Homo sapiens with 12 samples.

Results

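Ribosome biogenesis was followed through 54 genes for the RNA polymerase, processing factors and nucleolar proteins that build ribosomes, in CAMA-1 cells given abemaciclib, fulvestrant or both drugs. The genes were taken by symbol, as a hand-written list, from the 60612 named rows of the count table, and 53 of them were among the 11803 genes with enough reads to test. CAMA-1 is an established human breast cancer line that expresses the oestrogen receptor (ER), abemaciclib is an inhibitor of the kinases CDK4 and CDK6, and fulvestrant is a selective degrader of ER. Cells of 1 unmodified line were kept in RPMI-1640 with serum and harvested after 5 days with DMSO vehicle, abemaciclib at 100 nM, fulvestrant at 5 nM or the combination, whose doses the labels do not restate. Each of the 4 groups had 3 libraries from separate cultures, and transcripts were measured by 3′ RNA-seq, in which reads are counted near the polyadenylated end.

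Ribosomes are assembled in the nucleolus, where RNA polymerase I transcribes a long precursor of the 18S, 5.8S and 28S rRNAs. Small nucleolar ribonucleoproteins (snoRNPs) then modify the rRNA, with box C/D particles guiding methylation and box H/ACA particles guiding pseudouridylation, while many transient factors fold, cut and export the particles that become the small and the large subunit. Growing tumour cells use much of their energy for this work, and the transcription factor MYC, which binds the E-box sequence, is known to drive the genes of this pathway.

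By role, the list held 3 subunits of RNA polymerase I (POLR1A, POLR1B, POLR1C) and 5 proteins of the t-UTP subcomplex, which joins rRNA transcription to the first processing steps (HEATR1, UTP4, UTP15, WDR43, WDR75). It held 3 core box C/D proteins (FBL, NOP56, NOP58) and 4 core box H/ACA proteins (DKC1, NHP2, GAR1, NOP10). A further 12 members act on the small subunit (UTP18, UTP20, IMP3, IMP4, MPHOSPH10, NOP14, NOC4L, RRP9, RRP12, NAT10, BYSL, DDX10). The largest set, 21 members, acts on the large subunit (PES1, BOP1, WDR12, NOC2L, NOC3L, NOP2, NOP16, RRP1, RRP1B, RRS1, BRIX1, PPAN, GNL2, GNL3, NIP7, MRTO4, DDX18, DDX56, EBNA1BP2, GRWD1, NLE1). The last 6 are abundant or regulatory nucleolar proteins (NCL, NPM1, NOLC1, TCOF1, LYAR, DDX21).

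The upstream sequences of these genes were read for motifs of transcription factors, and those stretches are shown that hold the E-box. In the 250 bases before the RefSeq start site (GRCh38.p14), on either strand, the letters CACGTG occurred in 7 of the 45 members that have an entry (15.6%), against 6.49% of 27305 promoters and 9.17% of the 8986 promoters of tested genes. The 8 matches, of which NOP10 has 2, are given 5′ to 3′ on the strand of the gene with the E-box in capitals and up to 25 bases on each side.
EBNA1BP2, chr1:43172777-43172820, minus strand: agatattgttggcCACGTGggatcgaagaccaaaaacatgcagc
IMP4, chr2:130342669-130342724, plus strand: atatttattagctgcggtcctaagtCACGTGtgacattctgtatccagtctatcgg
NAT10, chr11:34105589-34105628, plus strand: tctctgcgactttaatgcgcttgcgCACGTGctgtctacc
NOP10, chr15:34343276-34343331, minus strand: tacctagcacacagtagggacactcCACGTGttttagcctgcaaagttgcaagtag
NOP10, chr15:34343137-34343172, minus strand: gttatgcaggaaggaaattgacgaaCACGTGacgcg
UTP18, chr17:51260432-51260487, plus strand: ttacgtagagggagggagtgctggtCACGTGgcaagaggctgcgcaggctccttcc
UTP20, chr12:101280070-101280104, plus strand: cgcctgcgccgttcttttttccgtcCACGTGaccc
UTP4, chr16:69132608-69132648, plus strand: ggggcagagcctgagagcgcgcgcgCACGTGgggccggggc
In NAT10, UTP20, UTP4 and the nearer match of NOP10, the last base of the E-box lay 10, 5, 11 and 6 bases before the start site, and in UTP18, IMP4 and EBNA1BP2 it lay 84, 198 and 232 bases before it, with the further match of NOP10 at 165. All 7 genes were among the 29 members with an entry that were lower in both single-drug comparisons, and 0 of the other 16 members had a match, a split that was seen after the calls and was not tested. It rests on calls that depend on the processing, since UTP18 lost its abemaciclib call in 11 of 21 alternatives, NAT10 in 2, and UTP20 and NOP10 in 1 each, and NOP10 lost its fulvestrant call in 1.

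A motif of the ETS family, searched as CCGGAAG on either strand, was more common, with 16 of the 45 members (35.6%) against 8.82% of all promoters and 17.4% of those of tested genes. Stretches are shown for 4 members whose levels are described below, picked after their values were seen, with the motif in capitals as it reads on the strand of the gene.
FBL, chr19:39846541-39846597, minus strand: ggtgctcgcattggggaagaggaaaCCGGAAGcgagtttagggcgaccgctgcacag
DDX21, chr10:68956085-68956141, plus strand: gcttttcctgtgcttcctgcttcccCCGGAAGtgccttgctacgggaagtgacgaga
POLR1B, chr2:112541885-112541941, plus strand: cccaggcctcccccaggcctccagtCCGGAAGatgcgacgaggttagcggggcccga
GAR1, chr4:109815457-109815509, plus strand: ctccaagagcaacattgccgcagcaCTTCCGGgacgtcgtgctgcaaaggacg
The motif was present before genes that fell with both drugs (FBL, DDX21) and before genes that abemaciclib did not lower (POLR1B, GAR1). The letters CCAAT were found in 37.8% of members and 36.1% of tested genes, and the E2F core GCGGGAA in 6.67% of members and 9.46% of tested genes. All 3 members with the E2F core were also among the 29 that were lower in both single-drug comparisons. The full oestrogen response element GGTCANNNTGACC was found in 0 of the 45 members and in 0.0439% of all promoters. Matches of different motifs shared bases in 0 members, and LYAR and NLE1, 2 of the members that fell most, held none of the 5 motifs in this window.

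Total counts per library ran from 3299119 to 5164667. The closest match of every library, by correlation over genes, was in its own group, and fulvestrant replicate 3 was the least tightly grouped. All 7 luminal markers looked up were expressed, among them ESR1, which encodes ER, at 93.3 ± 5.42 CPM (read counts scaled to a common library size) in DMSO, and of 10 markers of other cell types only COL1A1 exceeded 2 CPM there. The proliferation marker MKI67 fell from 511 ± 52.4 CPM in DMSO to 54.2 ± 4.74 with abemaciclib, 43.7 ± 2.29 with fulvestrant and 2.21 ± 0.404 with the combination (SD, n = 3). Mitochondrial transcripts took 12.0 to 12.5% of reads in DMSO and 15.6 to 20.6% in the drug groups, and the part of either difference in the results below was not tested, although leaving out mitochondrial transcripts left 36 and 47 members lower with abemaciclib and with fulvestrant, as in the full table. Levels are CPM on library sizes scaled by trimmed mean of M values (TMM), given as mean ± SD of 3 libraries, and in cultures harvested whole, fewer cells that use a gene and less of its RNA per cell cannot be told apart.

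Together the members made up 0.899% of all normalised counts in DMSO. Their summed level was 8995 ± 252 CPM in DMSO, 6185 ± 109 with abemaciclib, 4437 ± 220.0 with fulvestrant and 4564 ± 122 with the combination (SD, n = 3). The group values did not overlap except between fulvestrant and the combination, and they stood at 68.8%, 49.3% and 50.7% of the DMSO level. Nucleolin, nucleophosmin, fibrillarin and DDX21 carried 42.5% of the sum in DMSO, so counts of members are given beside every level. In counts at the 3′ end, which depend little on transcript length, the tested members ranged in DMSO from 11.2 CPM (NOC4L) to 1450 CPM (NCL), with a median of 85.1, and the median coefficient of variation over members and groups was 8.22%.

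**Figure D1:**
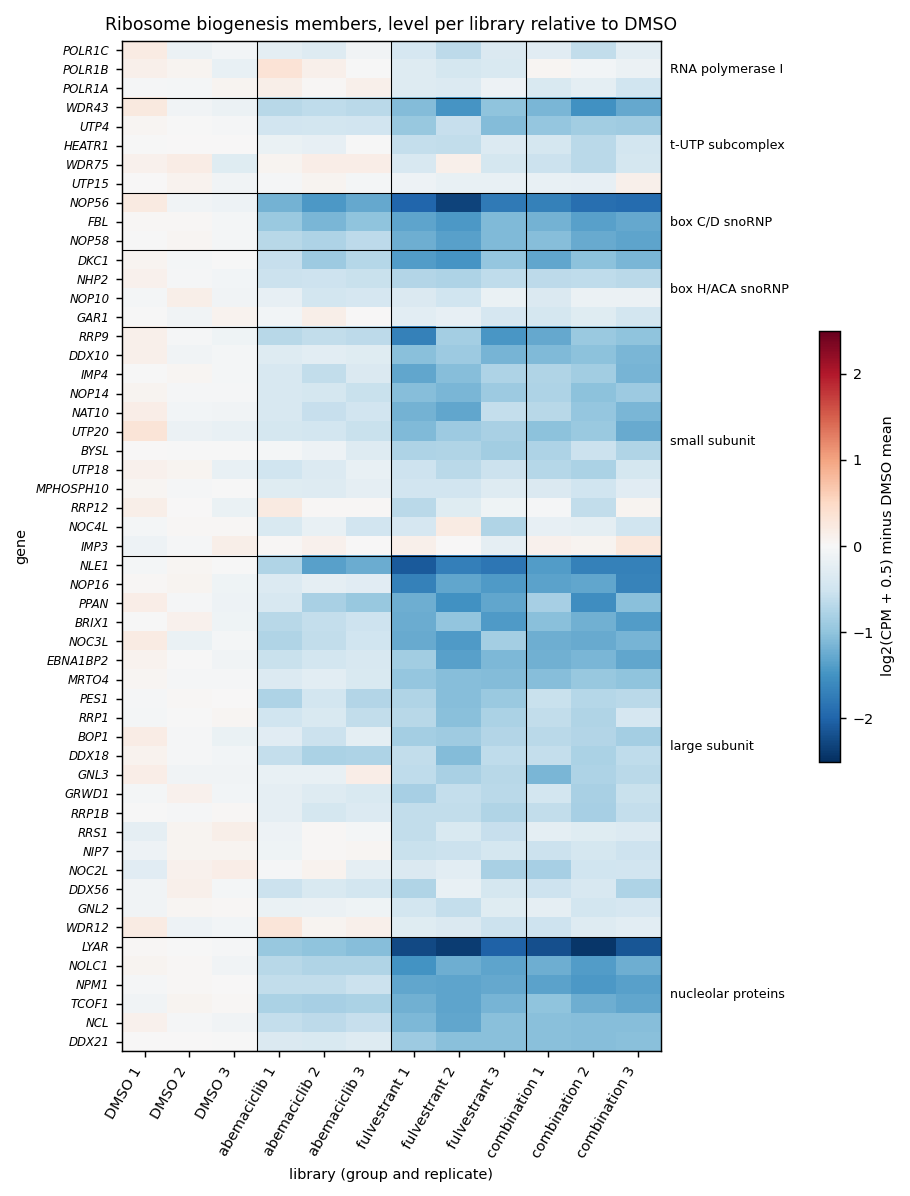
Level of each of the 53 tested members (rows, grouped by role) in each of the 12 libraries (columns), as log2(CPM + 0.5) minus the mean of the 3 DMSO libraries; blue is lower and red is higher. The fulvestrant and combination columns are the deepest blue, LYAR, NOP56 and NLE1 most of all, while IMP3 and UTP15 stay pale throughout.

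NOP2, an rRNA cytosine methyltransferase of the large subunit pathway, was the member that was not tested. It had 1 read in all, in combination replicate 1, and 0 in the other 11 libraries. In GENCODE v44 the 500 bases at its 3′ end overlap exons of another gene on the same strand (ENSG00000285238), and whether this took its reads in the authors' counting was not tested.

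Abemaciclib alone lowered 36 of the 53 members and raised 0 (adjusted p under 0.05 by the quasi-likelihood test of edgeR), against 20.7% of all genes tested that were lower and 41.2% that changed in either direction. The median log2 fold change of the members was -0.37, against 0.00 for all genes. Changes of single members are given below as log2 fold change ± SE, with adjusted p values from the same model. Only 4 members fell by more than 1 on the log2 scale, namely NOP56, NLE1, FBL and LYAR. The share of all genes tested past this cut was not computed, here or in the comparisons below. By role, abemaciclib lowered 3 of 3 box C/D proteins, 6 of 6 nucleolar proteins, 14 of 20 large subunit factors, 8 of 12 small subunit factors, 3 of 4 box H/ACA proteins, 2 of 5 t-UTP proteins and 0 of 3 polymerase subunits. The 17 members that did not pass the test had values between -0.37 (NOC4L) and 0.18 (WDR12).

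Fulvestrant alone lowered 47 members and raised 0, against 25.7% of all genes tested that were lower and 51% that changed in either direction, with a median of -0.85 against 0.01 for all genes. Of these, 22 fell by more than 1 on the log2 scale, a cut for which no share of all genes was computed. All 20 large subunit factors fell, as did all 3 box C/D proteins, all 4 box H/ACA proteins and all 6 nucleolar proteins, with 9 of 12 small subunit factors, 3 of 5 t-UTP proteins and 2 of 3 polymerase subunits. The 6 that did not pass the test (POLR1A, UTP15, WDR75, NOC4L, RRP12, IMP3) had values between -0.35 and -0.03. Without fulvestrant replicate 3, the library that stood furthest from its group, 47 members were lower, 45 of them the same. In that fit 51.1% of all genes changed in either direction.

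The combination lowered 47 members against DMSO, where 27.5% of all genes tested were lower and 55.2% changed in either direction, with a median of -0.76. The 3 comparisons with DMSO share their control libraries. Across them, 35 members were lower in each, 36 were lower with both single drugs, 11 were lower with fulvestrant and did not pass the test with abemaciclib, and 4 (UTP15, IMP3, NOC4L, RRP12) passed in none. The shares of all genes tested with these joint patterns were not computed.

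**Figure D2:**
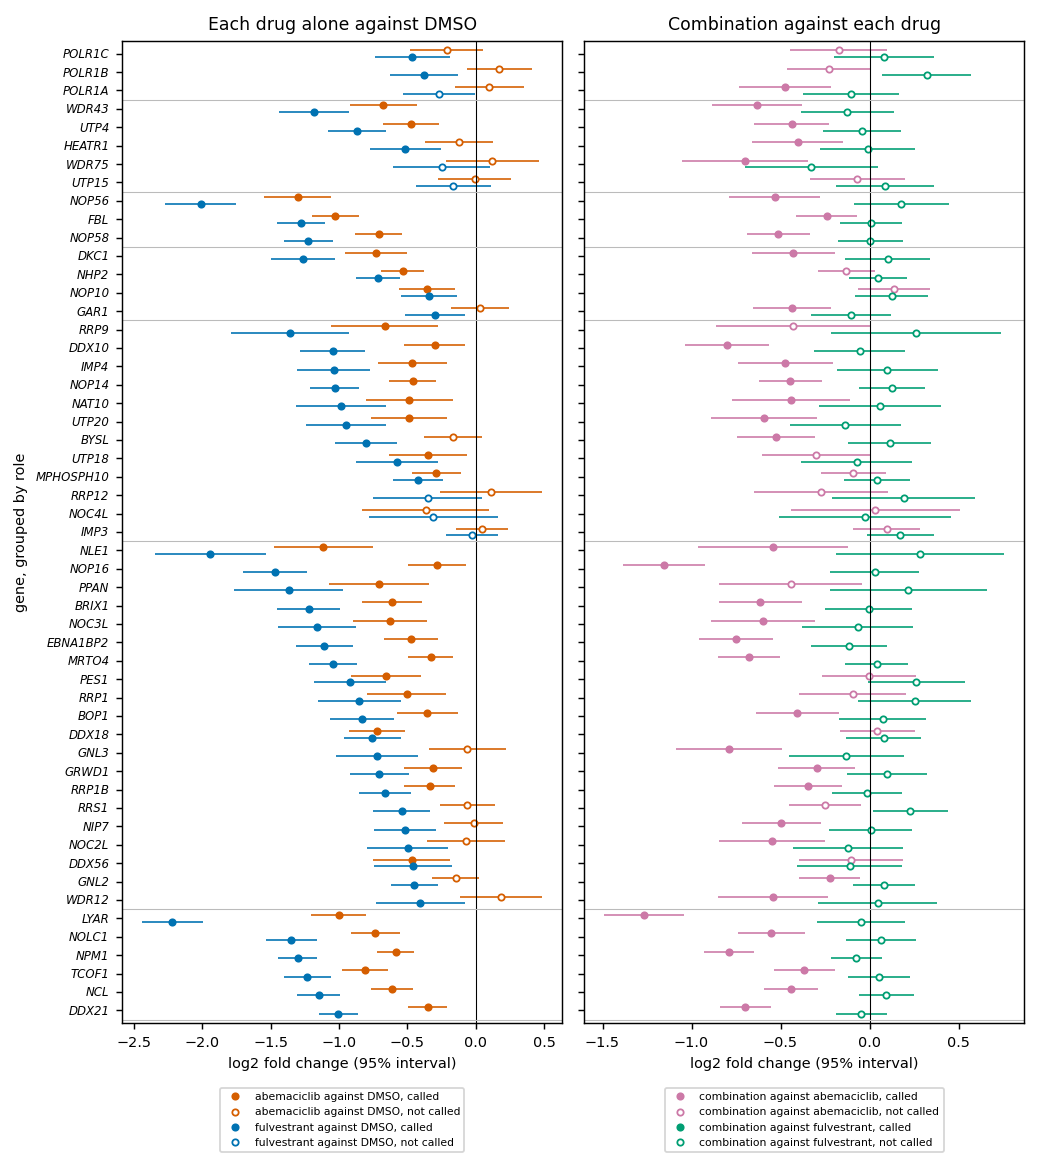
Log2 fold change with its 95% interval for each tested member, grouped by role; filled points passed the threshold and open points did not. On the left, abemaciclib (orange, 36 filled) and fulvestrant (blue, 47 filled) are each set against DMSO; on the right, the combination is set against abemaciclib (pink, 36 filled) and against fulvestrant (green, 0 filled).

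The 3 polymerase I subunits of the list had the smallest median change of any role with each single drug. Their medians were 0.10 with abemaciclib and -0.38 with fulvestrant. Outside the list, CD3EAP was at 165 ± 4.72, 113 ± 4.43 and 76.2 ± 8.07 CPM in DMSO, abemaciclib and fulvestrant. TWISTNB was at 85.9 ± 2.48, 66.1 ± 5.82 and 57.1 ± 10.3, and POLR1E at 27.1 ± 1.45, 17.9 ± 3.28 and 9.01 ± 2.46. POLR1D was at 67.0 ± 0.993, 61.5 ± 2.36 and 59.6 ± 6.23, and ZNRD1 at 32.7 ± 5.56, 28.3 ± 1.95 and 30.4 ± 4.52. POLR1B, the second largest subunit, was at 53.1, 50.4 and 42.2 CPM in the DMSO libraries, 61.6, 53.0 and 48.3 with abemaciclib, 38.8, 35.5 and 37.1 with fulvestrant and 50.0, 46.1 and 43.5 with the combination. The fulvestrant libraries lay below all others, while DMSO, abemaciclib and combination overlapped. Its log2 fold change was 0.17 ± 0.12 (SE) with abemaciclib (adjusted p = 0.248) and -0.38 ± 0.12 with fulvestrant (adjusted p = 0.0111), and the latter call was lost without DMSO replicate 1 or DMSO replicate 2 (adjusted p = 0.0546 and 0.0507). POLR1A, the largest subunit and catalytic partner of POLR1B, had 32.1 ± 1.38, 34.4 ± 1.51, 26.6 ± 2.26 and 24.8 ± 2.19 CPM in DMSO, abemaciclib, fulvestrant and combination. Its value with fulvestrant was -0.27 ± 0.13 (adjusted p = 0.0807) and passed the threshold only when scaled by total counts alone or without fulvestrant replicate 3 (adjusted p = 0.0427 and 0.0481). POLR1C, a subunit shared with RNA polymerase III, had -0.21 ± 0.13 with abemaciclib and fell by 0.46 ± 0.13 with fulvestrant (adjusted p = 0.201 and 0.00527).

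Within the t-UTP subcomplex the values were spread widely. WDR43 had 270.1, 214 and 207 CPM in DMSO, 142, 147 and 143 with abemaciclib, 108, 81.5 and 113 with fulvestrant and 104, 80.2 and 94.4 with the combination. All 3 drug groups lay below DMSO, and fulvestrant and combination lay below abemaciclib. Its log2 fold change was -0.68 ± 0.12 with abemaciclib (adjusted p = 1.25e-04) and -1.18 ± 0.12 with fulvestrant (adjusted p = 9.51e-08). UTP4, 1 of the E-box genes shown above, fell by 0.47 ± 0.10 and 0.87 ± 0.10 with the 2 drugs (adjusted p = 3.85e-04 and 5.74e-08). UTP15 stayed between 25.02 and 31.5 CPM in all 12 libraries, with -0.0053 ± 0.13 and -0.16 ± 0.13 (adjusted p = 0.979 and 0.321). WDR75 was at 20.7 ± 3.67, 22.5 ± 0.973 and 17.5 ± 4.10 CPM in DMSO, abemaciclib and fulvestrant and at 13.8 ± 1.17 in the combination. HEATR1 fell with fulvestrant (-0.51 ± 0.13, adjusted p = 0.00117) and had -0.12 ± 0.12 with abemaciclib (adjusted p = 0.437).

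The box C/D proteins had the largest median change of any role with abemaciclib, -1.03. Fibrillarin (FBL, chr19:39834458-39846379, minus strand) is the methyltransferase of the particle and was at 752, 746 and 711 CPM in DMSO, 385, 333 and 364 with abemaciclib, 295, 272 and 343 with fulvestrant and 326, 287 and 303 with the combination. No drug library came near the DMSO range, and the fulvestrant libraries overlapped both other drug groups. It was 2.04-fold lower with abemaciclib (log2 -1.03 ± 0.083, adjusted p = 1.12e-10) and 2.43-fold lower with fulvestrant (log2 -1.28 ± 0.084, adjusted p = 6.49e-13). NOP56 (chr20:2652593-2658393, plus strand), a scaffold on which the guide RNA and fibrillarin assemble, had 367, 293 and 286 CPM in DMSO, 138, 115 and 129 with abemaciclib, 78.8, 62.9 and 91.2 with fulvestrant and 97.4, 84.8 and 82.7 with the combination. DMSO stood apart from the drug groups and abemaciclib stood above both groups with fulvestrant. The fall was 2.47-fold with abemaciclib (log2 -1.30 ± 0.12, adjusted p = 3.36e-08) and 4.04-fold with fulvestrant (log2 -2.01 ± 0.12, adjusted p = 5.13e-11). Its partner NOP58 fell by 0.71 ± 0.084 and 1.22 ± 0.086 on the log2 scale (adjusted p = 1.11e-07 and 2.55e-12).

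Of the box H/ACA proteins, which also belong to telomerase, dyskerin (DKC1) is the pseudouridine synthase. It was at 324, 299.5 and 308 CPM in DMSO, 207, 165 and 189 with abemaciclib, 118, 111 and 158 with fulvestrant and 125, 151 and 140.0 with the combination. All drug libraries lay below DMSO, and fulvestrant replicate 3 lay above every combination library. Dyskerin fell by 0.73 ± 0.11 with abemaciclib and by 1.26 ± 0.11 with fulvestrant on the log2 scale (adjusted p = 1.73e-05 and 6.38e-09). The 3 small proteins that sit with dyskerin had smaller values. NHP2 changed by -0.53 ± 0.078 and -0.71 ± 0.079 (adjusted p = 3.07e-06 and 1.70e-08), and NOP10, with 2 E-boxes, by -0.36 ± 0.099 and -0.34 ± 0.099 (adjusted p = 0.00499 and 0.00521). The NOP10 calls were lost without DMSO replicate 2 in both comparisons. GAR1 had 0.031 ± 0.10 with abemaciclib, a value whose sign turned when scaled by total counts alone (-0.033), and -0.30 ± 0.11 with fulvestrant (adjusted p = 0.0215), a call lost without DMSO replicate 3 or fulvestrant replicate 3 (adjusted p = 0.116 and 0.0887).

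Among small subunit factors the median change was -0.36 with abemaciclib and -0.88 with fulvestrant. RRP9, a protein of the U3 snoRNP that guides the early cuts, was the member of this role that fell most with either drug. It had 19.3, 17.5 and 16.5 CPM in DMSO, 10.8, 11.5 and 11.1 with abemaciclib, 5.19, 9.59 and 6.15 with fulvestrant and 6.98, 9.10 and 8.54 with the combination. Its log2 fold change was -0.67 ± 0.19 with abemaciclib and -1.36 ± 0.21 with fulvestrant (adjusted p = 0.00644 and 4.80e-06). The helicase DDX10 had a log2 fold change of -0.30 ± 0.11 with abemaciclib and of -1.05 ± 0.12 with fulvestrant (adjusted p = 0.0265 and 1.66e-08). The first of these calls was lost under 6 alternatives, DMSO replicate 1 and each abemaciclib replicate left out among them. NAT10, the acetyltransferase of 18S rRNA and another E-box gene, was at 116, 98.6 and 97.1 CPM in DMSO, 78.2, 69.5 and 74.0 with abemaciclib, 45.2, 41.7 and 68.8 with fulvestrant and 64.2, 52.9 and 46.8 with the combination. Fulvestrant replicate 3 stood well above the other two, close to the abemaciclib libraries. NAT10 changed by -0.49 ± 0.15 with abemaciclib and -0.99 ± 0.16 with fulvestrant (adjusted p = 0.0159 and 5.32e-05), and the first call was lost without DMSO replicate 1 or abemaciclib replicate 2.

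IMP3, which sits with IMP4 and MPHOSPH10 on the U3 particle, passed the test in no comparison. It had 139.8, 149.6 and 168 CPM in DMSO, 156, 163 and 154 with abemaciclib, 165, 154 and 130.1 with fulvestrant and 163, 159 and 183 with the combination, so that all groups overlapped DMSO. Its values were 0.047 ± 0.092 with abemaciclib and -0.030 ± 0.093 with fulvestrant (adjusted p = 0.716 and 0.809), with a 95% interval of -0.22 to 0.16 for the latter. Its partners IMP4 and MPHOSPH10 fell with both drugs, IMP4 by 0.46 ± 0.12 and 1.04 ± 0.13 and MPHOSPH10 by 0.29 ± 0.088 and 0.42 ± 0.089. RRP12 had 0.11 ± 0.18 with abemaciclib and -0.35 ± 0.19 with fulvestrant (adjusted p = 0.654 and 0.132).

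**Figure D3:**
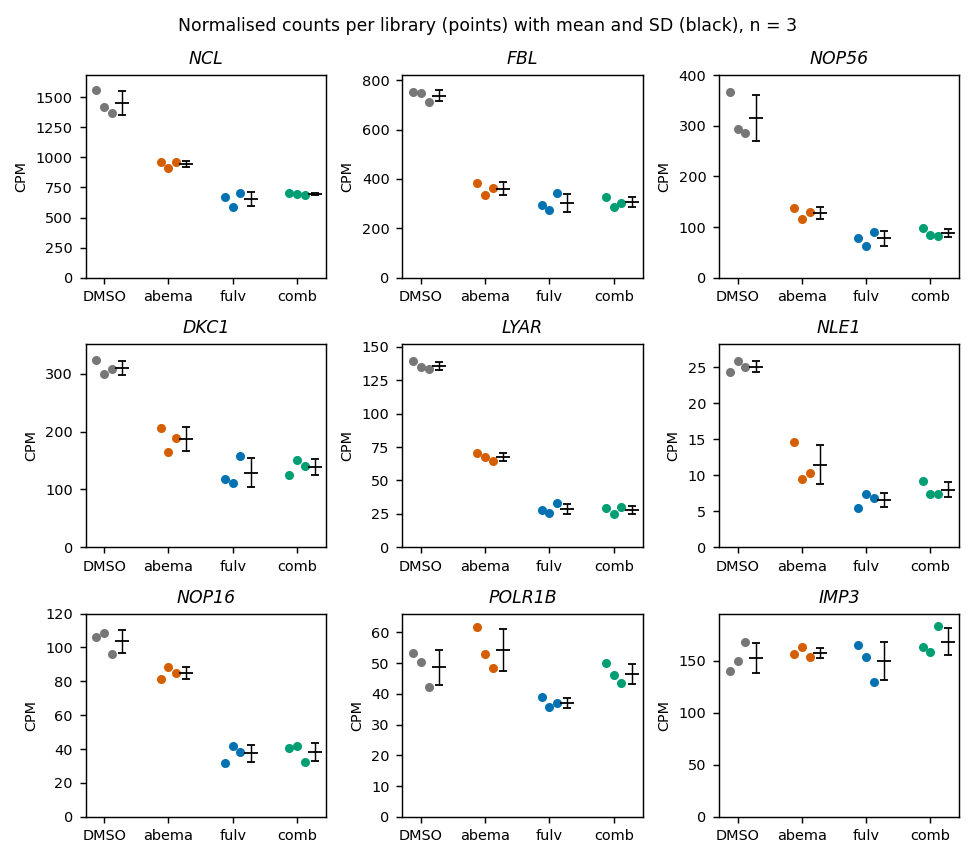
Normalised counts (CPM, axis from 0) of 9 members in each library (points), with the mean and SD of the 3 libraries of a group in black. NCL, FBL, NOP56, DKC1, LYAR and NLE1 are highest in DMSO, lower with abemaciclib and lowest on average in the 2 groups with fulvestrant, NOP16 drops mainly in those 2 groups, POLR1B is lowest with fulvestrant alone, and the groups overlap for IMP3.

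Large subunit factors ranged from -1.11 (NLE1) to 0.18 (WDR12) with abemaciclib and from -1.94 (NLE1) to -0.41 (WDR12) with fulvestrant. NLE1 (chr17:35128730-35142304, minus strand) binds the pre-60S particle and the large AAA ATPase that remodels it. It was at 24.3, 25.8 and 25.01 CPM in DMSO, 14.6, 9.49 and 10.4 with abemaciclib, 5.44, 7.33 and 6.84 with fulvestrant and 9.14, 7.44 and 7.38 with the combination. No drug library reached the DMSO range, and the fall was 2.17-fold with abemaciclib (adjusted p = 1.08e-05) and 3.84-fold with fulvestrant (adjusted p = 4.00e-09). NOP16, a nucleolar factor of the large subunit precursor, was at 106, 109 and 96.1 CPM in DMSO and 81.4, 88.5 and 85.2 with abemaciclib but 31.9, 42.0 and 38.5 with fulvestrant and 40.9, 41.6 and 32.2 with the combination. It changed by -0.29 ± 0.10 with abemaciclib (adjusted p = 0.0288) and by -1.47 ± 0.11 with fulvestrant (adjusted p = 1.66e-11). The first call was lost without DMSO replicate 1, DMSO replicate 2, abemaciclib replicate 1 or abemaciclib replicate 3, and with no filter on low counts.

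PES1, BOP1 and WDR12 form the PeBoW complex, which acts in maturation of the large subunit rRNAs, and WDR12 was the one that did not pass the test with abemaciclib. PES1 was at 44.8, 46.9 and 46.3 CPM in DMSO, 26.8, 33.3 and 27.5 with abemaciclib, 27.2, 21.7 and 23.9 with fulvestrant and 31.3, 27.9 and 28.5 with the combination. It changed by -0.66 ± 0.12 with abemaciclib (adjusted p = 1.08e-04), by -0.92 ± 0.13 with fulvestrant (adjusted p = 8.94e-07) and by -0.66 ± 0.12 with the combination (adjusted p = 5.26e-05). BOP1 changed by -0.35 ± 0.11 with abemaciclib and by -0.83 ± 0.11 with fulvestrant (adjusted p = 0.0108 and 6.64e-07), and the first call was lost without DMSO replicate 1 or abemaciclib replicate 2 (adjusted p = 0.0796 and 0.0874). WDR12 was at 24.0, 19.0 and 20.1 CPM in DMSO, 26.0, 22.1 and 22.7 with abemaciclib, 16.8, 16.1 and 14.4 with fulvestrant and 14.4, 16.7 and 17.3 with the combination, with 0.18 ± 0.15 and -0.41 ± 0.16 (adjusted p = 0.333 and 0.0344). Its fulvestrant call was lost with DESeq2 (adjusted p = 0.0695) and without DMSO replicate 1, DMSO replicate 3, fulvestrant replicate 2 or fulvestrant replicate 3. By edgeR it was also lost with no filter on low counts and with only the groups compared (adjusted p = 0.0862 and 0.0598). The call of WDR12 in the combination against DMSO was lost in 15 of 21 alternatives.

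The paralogues RRP1 and RRP1B both fell with each drug. RRP1 changed by -0.51 ± 0.14 and -0.85 ± 0.15 and RRP1B by -0.34 ± 0.091 and -0.66 ± 0.093 with abemaciclib and fulvestrant (adjusted p = 0.00509 and 2.26e-05 for RRP1, and 0.00398 and 1.00e-06 for RRP1B). DDX18, a helicase, fell by 0.72 ± 0.10 with abemaciclib and 0.76 ± 0.10 with fulvestrant (adjusted p = 2.15e-06 and 6.15e-07). The GTPase nucleostemin (GNL3) had -0.063 ± 0.14 with abemaciclib and fell by 0.72 ± 0.15 with fulvestrant (adjusted p = 0.745 and 1.77e-04), and NIP7 had -0.016 ± 0.10 and fell by 0.52 ± 0.11 (adjusted p = 0.918 and 2.88e-04).

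All 6 nucleolar proteins fell with both drugs. Nucleolin (NCL, chr2:231453531-231483641, minus strand), a histone chaperone and RNA-binding protein of the nucleolus, was the most abundant member. It had 1559, 1422 and 1368 CPM in DMSO, 959, 915 and 964 with abemaciclib, 667, 589.5 and 703 with fulvestrant and 705, 695 and 689.9 with the combination. DMSO, abemaciclib and the fulvestrant-containing groups occupied 3 separate ranges, with log2 fold changes of -0.62 ± 0.075 and -1.15 ± 0.076 with abemaciclib and fulvestrant (adjusted p = 1.73e-07 and 6.25e-13). LYAR (chr4:4267701-4290154, minus strand), a nucleolar zinc finger protein of growing cells, had 139, 135 and 133 CPM in DMSO, 70.6, 67.8 and 64.4 with abemaciclib, 28.2, 25.7 and 33.0 with fulvestrant and 29.1, 24.8 and 30.5 with the combination. It was 2.00-fold lower with abemaciclib and 4.66-fold lower with fulvestrant (adjusted p = 2.97e-09 and 1.17e-15), the furthest fall of any member with fulvestrant. DDX21, a helicase linked to transcription by RNA polymerases I and II, changed by -0.35 ± 0.069 and -1.01 ± 0.070 (adjusted p = 1.62e-04 and 1.97e-12), and treacle (TCOF1), which aids polymerase I, by -0.81 ± 0.082 and -1.23 ± 0.084 (adjusted p = 6.95e-09 and 1.22e-12).

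Nucleophosmin (NPM1), the main protein of the granular nucleolus, was at 951, 998 and 981 CPM in DMSO, 637, 641 and 673 with abemaciclib, 394, 392 and 401 with fulvestrant and 384, 362 and 383 with the combination. Its log2 fold changes were -0.59 ± 0.067 and -1.30 ± 0.069 with the 2 drugs (adjusted p = 6.88e-08 and 6.63e-15). Counting of NPM1 is uncertain because 49 pseudogenes carry its name in GENCODE v44. In all, 15 members had such pseudogenes, and the 3′ end of 9 members overlaps exons of genes on the other strand.

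**Figure D4:**
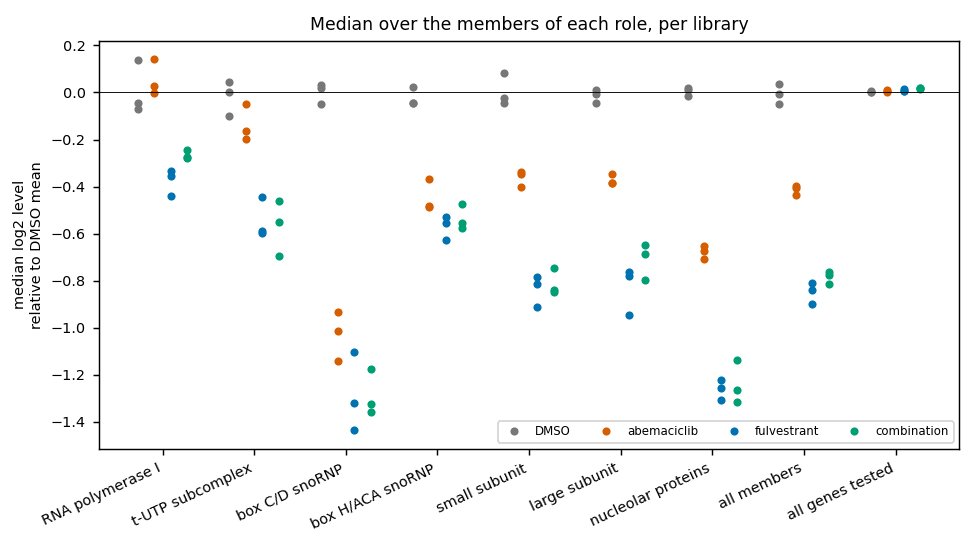
Median over the members of each role of the log2 level relative to the DMSO mean, 1 point for each library, with all members and all genes tested at the right. Among the roles, only the box C/D members have abemaciclib libraries near -1, and the polymerase members stay around 0 with abemaciclib. All genes tested lie at 0 in every library.

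Fulvestrant was next compared in the presence of abemaciclib, by setting the combination against abemaciclib alone. It lowered 36 of the 53 members and raised 0, against 17.7% of all genes tested that were lower and 33.5% that changed in either direction, with a median of -0.44. These were 6 of 6 nucleolar proteins, 3 of 3 box C/D proteins, 4 of 5 t-UTP proteins, 14 of 20 large subunit factors, 6 of 12 small subunit factors, 2 of 4 box H/ACA proteins and 1 of 3 polymerase subunits. Only LYAR (-1.27 ± 0.11, adjusted p = 5.07e-10) and NOP16 (-1.16 ± 0.11, adjusted p = 4.38e-09) fell by more than 1, again without a share of all genes for this cut. Other falls were those of DDX10 (-0.80 ± 0.12, adjusted p = 3.44e-06), NPM1 (-0.79 ± 0.068, adjusted p = 4.99e-10) and WDR75 (-0.70 ± 0.17, adjusted p = 0.00237). For GAR1 and POLR1A, which abemaciclib alone had not lowered, the values were -0.44 ± 0.11 and -0.47 ± 0.13 (adjusted p = 0.00202 and 0.00433), and for BOP1 and WDR12 they were -0.41 ± 0.11 and -0.54 ± 0.15 (adjusted p = 0.00645 and 0.00611).

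Some members that abemaciclib alone had lowered did not pass the test here. PES1 had -0.0017 ± 0.13, with a 95% interval of -0.27 to 0.26, DDX18 had 0.044 ± 0.10 and RRP1 had -0.095 ± 0.15 (adjusted p = 0.993, 0.782 and 0.660). Fibrillarin fell by 0.24 ± 0.084 (adjusted p = 0.0266), a call that was lost when scaled by total counts alone and without abemaciclib replicate 1, abemaciclib replicate 3, combination replicate 2 or combination replicate 3 (adjusted p from 0.0686 to 0.139). NOP56, NOP58, DKC1 and NCL fell by 0.53 ± 0.12, 0.51 ± 0.086, 0.43 ± 0.11 and 0.44 ± 0.075 (adjusted p = 0.00215, 3.34e-05, 0.00520 and 3.59e-05). RRP1B fell by 0.34 ± 0.093 (adjusted p = 0.00518), which rose to 0.0504 without combination replicate 2. The comparisons of fulvestrant with DMSO and of the combination with abemaciclib share no library, but 1 model over all 12 libraries gave the spread for both. In both, 34 members were lower, which is 72.3% of the 47 and 94.4% of the 36. The share of all genes tested that were lower in both was not computed, so this overlap has no background beside it.

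Abemaciclib was also compared in the presence of fulvestrant, by setting the combination against fulvestrant alone. None of the 53 members passed the test, by edgeR or by DESeq2. Of all genes tested, 1.92% passed by edgeR, or 4.87% without fulvestrant replicate 3. With so few genes passing, a count of 0 members is not set apart from the background. By edgeR, 1368 of all 11803 genes tested had an unadjusted p under 0.05. Among the members there were 2, POLR1B (0.32 ± 0.12, adjusted p = 0.249) and RRS1 (0.23 ± 0.10, adjusted p = 0.377), and 1 by DESeq2. Values ran from -0.33 (WDR75) to 0.32 (POLR1B), with 20 below and 33 above 0 and a median of 0.05. Their 95% intervals lay within 1.5-fold in either direction for 48 members and within 2-fold for all 53, and for nucleolin and nucleophosmin the intervals were -0.061 to 0.25 and -0.21 to 0.067. MKI67 in the same libraries was 19.7-fold lower with the combination than with fulvestrant (adjusted p = 2.85e-16).

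The difference between the changes that abemaciclib produced without and with fulvestrant was tested as an interaction. It passed the threshold in 25 of 53 members, always in the positive direction, against 9.49% of all genes tested that were positive and 21.1% that passed in either direction. All 25 were among the members that abemaciclib alone had lowered, a comparison that shares its libraries with the interaction. Their median change with abemaciclib was -0.66 without fulvestrant and 0.06 with it, a difference for which the test had selected them. Over all 53 tested members the medians were -0.37 and 0.05. The 25 were 6 of 6 nucleolar proteins, 3 of 3 box C/D proteins, 3 of 4 box H/ACA proteins, 8 of 20 large subunit factors, 3 of 12 small subunit factors, 2 of 5 t-UTP proteins and 0 of 3 polymerase subunits. NOP56 had the largest value, 1.48 ± 0.17 (adjusted p = 5.23e-06), with abemaciclib changing it by -1.30 ± 0.12 without and by 0.18 ± 0.13 with fulvestrant. NLE1 had 1.40 ± 0.29, FBL 1.04 ± 0.12 and LYAR 0.96 ± 0.16 (adjusted p = 8.89e-04, 3.27e-07 and 5.40e-05). RRP9 (0.93 ± 0.30, adjusted p = 0.0275) lost its call with DESeq2 (adjusted p = 0.0551) and in 6 of the fits that left out 1 library, and the count of members ranged from 19 to 29 over those fits. Over the same fits the share of all genes past the threshold ran from 16.5 to 27.5%.

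**Figure D5:**
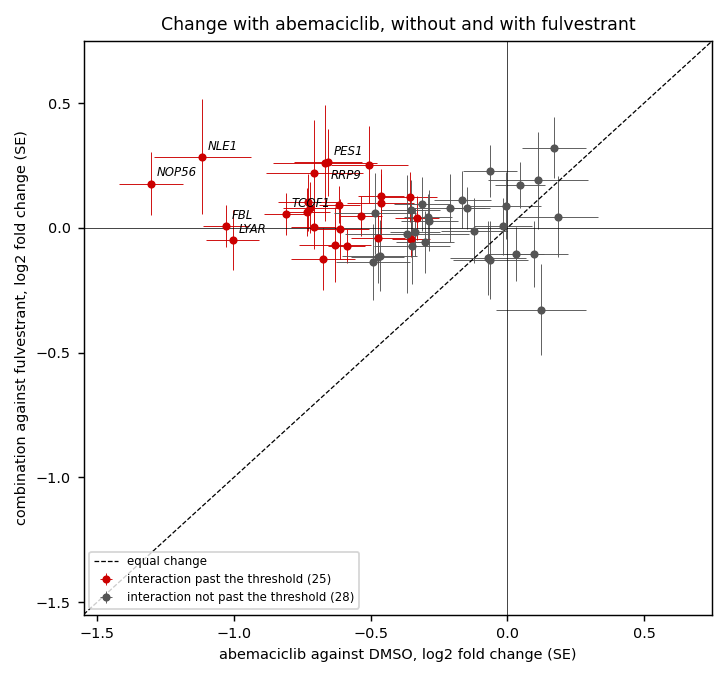
Log2 fold change with abemaciclib in the absence of fulvestrant (horizontal axis) and in its presence (vertical axis) for the 53 tested members, with SE bars; the dashed line marks equal change. The 25 members with an interaction past the threshold (red) lie to the left and near 0 on the vertical axis, led by NOP56 at -1.30 and 0.18.

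By mean level, the order DMSO, abemaciclib, combination, fulvestrant from high to low held for 26 members, and the same order with the last 2 exchanged held for 15. The order of fulvestrant and the combination was not settled for any member, since 0 passed the test between them. Both the step from DMSO down to abemaciclib and the step from abemaciclib down to the combination passed the test in 26 members. Taken singly, these steps passed in 20.7% and 17.7% of all genes tested. Neither the orders nor the pair of steps was counted over all genes, so these counts have no background beside them. MYC, which is not a member, was at 8.61, 16.7 and 27.5 CPM in DMSO, 17.6, 21.0 and 20.7 with abemaciclib, 10.6, 5.64 and 4.33 with fulvestrant and 2.89, 7.03 and 4.08 with the combination. Its DMSO libraries were spread widely and overlapped both single-drug groups, with log2 fold changes of 0.12 ± 0.37 with abemaciclib and -1.40 ± 0.44 with fulvestrant (adjusted p = 0.825 and 0.0222) and of -2.05 ± 0.45 for the combination against abemaciclib (adjusted p = 0.00533). Its part in the levels of the members was not tested.

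Of 126 other ribosome biogenesis genes written down by name, 121 were tested. Abemaciclib lowered 53 and raised 2 of them, so that 43.8% were lower against 20.7% of all genes tested, and 45.5% were called in either direction against 41.2%. Fulvestrant lowered 82 and raised 2, with 67.8% lower against 25.7% and 69.4% called against 51%. Fulvestrant in the presence of abemaciclib lowered 45 and raised 4, with 37.2% lower against 17.7% and 40.5% called against 33.5%. By list, abemaciclib lowered 8 of 18 polymerase I subunits and factors (44.4%), 12 of 40 small subunit factors (30.0%), 27 of 48 large subunit factors (56.3%) and 6 of 15 exosome genes (40.0%), against the same 20.7%. Counted in either direction, 35% of the small subunit factors and 40.0% of the exosome genes were called with abemaciclib, which does not exceed the 41.2% of all genes. Fulvestrant lowered 12, 25, 35 and 10 genes of these lists, which is 66.7%, 62.5%, 72.9% and 66.7% against 25.7%. EXOSC2 and EXOSC9, subunits of the RNA exosome that trims rRNA ends, fell by 1.14 ± 0.16 and 1.13 ± 0.098 with abemaciclib and by 1.53 ± 0.17 and 1.42 ± 0.10 with fulvestrant (adjusted p = 2.23e-06, 3.86e-10, 2.39e-08 and 3.33e-12). The polymerase I subunit POLR1E fell by 0.60 ± 0.17 and 1.56 ± 0.19 (adjusted p = 0.00663 and 1.41e-07). TAF1B, of the promoter selectivity factor of polymerase I, fell by 1.05 ± 0.21 with abemaciclib and by 1.03 ± 0.21 with fulvestrant (adjusted p = 2.03e-04 and 2.02e-04). TAF1A, of the same factor, had 13, 21 and 17 reads in DMSO and 3, 2 and 5 with fulvestrant, so that its fitted change of -2.15 ± 0.44 (95% interval -3.06 to -1.24, adjusted p = 2.05e-04) rests on few reads, and with abemaciclib it had -0.58 ± 0.35 (adjusted p = 0.187). RCL1, a cleavage factor of the small subunit, was higher with abemaciclib (0.83 ± 0.25, adjusted p = 0.0253), and TSR1 was the 1 gene of these lists that differed between the combination and fulvestrant (0.42 ± 0.11, adjusted p = 0.0347). That 1 gene is 0.826% of the 121, against 1.92% of all genes tested.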

How the data were processed

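RNA was sequenced as 3′ libraries (QuantSeq FWD), and the treatment labels gave the groups. A table of raw read counts, with rows named by gene symbol, was deposited by the authors, who trimmed reads with BBDuk, aligned them to hg38 with STAR and counted them with featureCounts 2.0.1. Whether counting used the strand is not given in the sources used here, and no molecular identifiers are named.

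The 44 rows with no gene name held 0 reads and were left out. The filterByExpr rule, with a minimum count of 10 and a minimum total of 15, kept 11803 genes. Tests used edgeR 4.0.16 under R 4.3.3, with TMM factors and 1 model of 4 group means over all 12 libraries with robust quasi-likelihood dispersions. DESeq2 1.42.0, the authors' own test, was an alternative. P values were adjusted by Benjamini-Hochberg across all 11803 genes, and a member was called when its adjusted p was under 0.05. The interaction is the change with abemaciclib in the presence of fulvestrant minus that in its absence, on the log2 scale. Standard errors came from the F statistic. No test over the list was made.

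Members named by rule were, in each role and in each of 3 comparisons, those with the highest and lowest fold change, 13 chosen by name, the untested member, and up to 10 called for the interaction. Other named members, and those with a value given for every library, were picked once the values were known. The members, the lists and these rules were chosen with earlier results of these data known. Of the 126 other ribosome biogenesis genes, 122 were found.

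On counts simulated from these libraries, the comparison of abemaciclib with DMSO recovered 80 of 99 genes changed 2-fold and 39 of 98 changed 1.5-fold among 11564 tested, and the interaction recovered 55 and 14 of these. Few genes were changed in the simulation, while 41.2% of all genes were called with abemaciclib in the data. The adjusted threshold was therefore stricter in the simulation, and its recovery cannot be carried over to the data. Gene coordinates are from GENCODE v44 on GRCh38 and upstream sequences from RefSeq.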

Additional observations from a re-analysis of the deposited data

Results flagged for a closer look

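The change that abemaciclib produced differed with and without fulvestrant in part of the members. This was tested as an interaction in the edgeR model, which 9.49% of all genes tested passed with positive values and 21.1% in either direction. Of the 53 tested members, 28 did not pass and 25 passed, all with positive values. The 10 with the largest log2 differences were NOP56 (1.48), NLE1 (1.40), FBL (1.04), LYAR (0.96), PPAN (0.93), RRP9 (0.93), PES1 (0.92), TCOF1 (0.86), DKC1 (0.83) and DDX18 (0.80). In each, abemaciclib lowered the level in the absence of fulvestrant. The value in its presence passed the test in none of the 53 tested members, these 10 included, where 1.92% of all genes tested passed. PPAN, a factor of the large subunit whose 3′ end overlaps exons of P2RY11 on the same strand in GENCODE v44, lost its interaction call without abemaciclib replicate 3 (adjusted p = 0.0506) or combination replicate 1 (adjusted p = 0.0724).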

How the results depend on the processing

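Over 21 alternatives, 27 of the 36 members lower with abemaciclib, 42 of the 47 lower with fulvestrant, 42 of the 47 lower with the combination and 28 of the 36 lower in the combination against abemaciclib were called each time, as were 16 of the 25 interactions over 20. No count of members moved by more than 1.5 times. DESeq2 called 34, 46, 46, 33, 0 and 21 members for abemaciclib, fulvestrant and combination against DMSO, combination against abemaciclib, combination against fulvestrant and interaction. The shares of all genes called by DESeq2 in either direction were 36.5%, 46.5%, 50.5%, 28.6%, 1.81% and 17.9%. In that order, leaving out 1 library at a time gave 30 to 36, 44 to 48, 44 to 48, 29 to 37, 0 to 0 and 19 to 29 members, and medians of -0.43 to -0.36, -0.88 to -0.79, -0.83 to -0.73, -0.47 to -0.43, 0.01 to 0.08 and 0.34 to 0.43. The shares of all genes called moved as well in these fits. They ran from 33.3 to 44.4%, 44.7 to 51.1%, 48.7 to 57.7%, 26.7 to 37.2%, 1.22 to 4.87% and 16.5 to 27.5%. Scaling by total counts alone moved the medians to -0.43 (abemaciclib), -0.91 (fulvestrant), -0.39 (combination against abemaciclib), 0.093 (combination against fulvestrant) and 0.48 (interaction), beside medians of all genes of -0.063, -0.050, 0.063, 0.047 and 0.097 under that scaling. With no filter on low counts the median for the combination against DMSO was -0.71. By total counts alone the sign turned for GAR1 with abemaciclib (-0.033) and PES1 in the combination against abemaciclib (0.050), and for the latter also with upper-quartile factors (0.0044). Leaving out 1 library turned signs for GAR1 and WDR75 with abemaciclib (-0.031 to 0.090 and -0.018 to 0.23), IMP3 with fulvestrant (-0.0987 to 0.063) and PES1 (-0.066 to 0.10). None of these 4 values had passed the test, and the cause was not tested.

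The replicate numbers did not pair the libraries. After the group mean of each gene was subtracted, correlations between same-numbered libraries of different groups ran from -0.18 to 0.10. Among libraries of other groups, 5 of 12 libraries had their highest such correlation with a library of their own number. With a replicate block the 6 counts were 35, 47, 46, 35, 0 and 25, beside 40.7%, 50.6%, 54.8%, 32.9%, 1.72% and 20.7% of all genes called. Depth limits members with few reads, such as NOC4L and RRP9. With 3 libraries a group, changes of 1.5-fold or less may be missed, as may 2-fold interactions. Smaller changes were also called, since only 17 of the 36 members called with abemaciclib fell by more than 1.5-fold.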
